A study of Rattus norvegicus with 32 samples.

Results

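The genes of the extracellular matrix proteases and of their inhibitors were followed in the left ventricle of rats with sepsis. The members were all probes, control spots left out, whose gene symbol in either annotation version of the array began with Mmp and a digit or with Adamts, or was one of Timp1 to Timp4. This rule found 80 probes (136 spots) for 50 genes, out of 18820 genes with a symbol on the array. They were the matrix metalloproteinases (MMPs), the ADAMTS proteases, 5 ADAMTS-like proteins and the 4 tissue inhibitors of metalloproteinases (TIMPs).

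Male and female Wistar rats either had sham surgery, or had caecal ligation and puncture (CLP), a model of sepsis in which gut content leaks into the abdomen, or had CLP followed by an infusion of landiolol (CLP plus landiolol), a short-acting blocker of cardiac beta-adrenergic receptors. Each sex had 5 sham, 5 CLP and 6 CLP plus landiolol rats, 1 array per heart, and the hearts were taken at 20 h. Rats without landiolol received saline in a similar volume, all groups were given buprenorphine, and all hearts had been imaged in vivo and then perfused ex vivo on a Langendorff system before they were frozen, so that sham hearts were not untouched hearts. The rats were young adults, no antibiotic was used, and no genetic change is given for any group.

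MMPs are zinc-dependent enzymes that cut collagens, elastin, proteoglycans and many cell-surface proteins. They are made as inactive precursors, are activated by other proteases, among them the membrane-type MMPs, and are blocked by TIMPs. The ADAMTS proteases are secreted relatives that cut large proteoglycans such as versican or trim procollagens, whereas the ADAMTS-like proteins share their binding domains and lack the protease. In the heart, these enzymes are known for their part in the turnover of the collagen network around the muscle cells.

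The values were log2 intensities, quantile-normalised over the 16 arrays of a sex. Levels can be compared between arrays of 1 sex for the same probe, not between probes, and the sexes were hybridised on different slides. A probe was kept in a sex when it was well above background, by the scanner software's test, on at least 80% of the arrays of 1 group of that sex. A gene was represented by its kept probe with the highest mean and was called when that probe passed an adjusted p (limma, Benjamini-Hochberg over all kept probes) of 0.01 against sham or 0.05 between CLP plus landiolol and CLP. Over the 32 arrays, 34920 to 43155 of 58717 spots were well above background, no spot was saturated, and the correlation between any pair of arrays was between 0.946 and 0.988. Precision was limited by the number of arrays. All 6 cardiomyocyte markers examined were well above background in each group and none was called in any comparison.

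The probes that carried the main differences are shown first, each by the first 30 of its 60 bases, as the array files give them, in the order in which they are used. Mmp24 was measured by 1 probe, which the array annotation does not place in the genome. Adamts9 was measured by a pair of probes 38133 bases apart at chr4:126996632-126996691 and chr4:127034765-127034824 (rn4, minus strand). The probes of Adamtsl2 lie 915 bases apart at chr3:6002953-6003012 and chr3:6003868-6003927 (rn4, plus strand), and those of Adamts17 lie 2800 bases apart at chr1:121492766-121492825 and chr1:121495566-121495625 (rn4, plus strand). The exon or intron under each probe was not analysed here. In each pair the probe that represented the gene comes first.
Mmp24: agcctgggtgacatcacagcatttcagtgt
Adamts9, representative probe: gccagagcacttggtgtatgaacaagtgtc
Adamts9, other probe: aaccgaaggtgatatggaagcgtcttgtta
Adamtsl2, representative probe: gtgaggatgcgagatgtgaagtgttaccag
Adamtsl2, other probe: atcaaagtgaacctctgtggccattggtac
Adamts17, representative probe: agaagatcaatgtgaacaccatcacctccc
Adamts17, other probe: gaaaaaactcatcgttccattgggagcaag

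In brief, the transcript of the membrane-type protease Mmp24 was 16.5-fold higher with CLP than with sham in males and 10.3-fold higher in females, the largest change with CLP of any kept member in either sex. Males with CLP also had higher Adamts9, Adamts12 and Mmp14 and lower Timp3, Adamts2 and Adamtsl5, and females with CLP had lower Adamtsl3. With landiolol, Mmp24, Adamts9 and Adamtsl2 were lower than with CLP alone in males, and no member was called in that comparison in females. None of the differences between the sexes in these changes passed its own test. The calls of Timp3, Adamts2 and Adamtsl2 were lost when some single arrays were left out. The secreted collagenases and Mmp9 were at or near the array's background in nearly all hearts.

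Of the 50 genes, 35 were kept in males and 33 in females, and all 33 were also among the 35. All 5 ADAMTS-like genes, all 4 TIMPs and the 3 procollagen N-propeptidases were kept in males, as were 6 of 6 ADAMTS proteoglycanases, 8 of 9 other ADAMTS genes and 5 of 6 membrane-type MMPs. By contrast, the secreted MMPs were mostly dim. None of the 4 collagenases (Mmp1, Mmp1b, Mmp8 and Mmp13) was kept, and 1 of 2 gelatinases (Mmp2), 1 of 4 stromelysins and matrilysins (Mmp11) and 2 of 7 other MMPs (Mmp19 and Mmp23) were. The 15 genes kept in neither sex were Adamts16, Mmp1, Mmp1b, Mmp3, Mmp7, Mmp8, Mmp9, Mmp10, Mmp12, Mmp13, Mmp16, Mmp20, Mmp21, Mmp27 and Mmp28, and Adamts3 and Adamts20 were kept in males only. Genes that were not kept had no test, and a dim probe does not show that its transcript was absent.

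**Figure D1:**
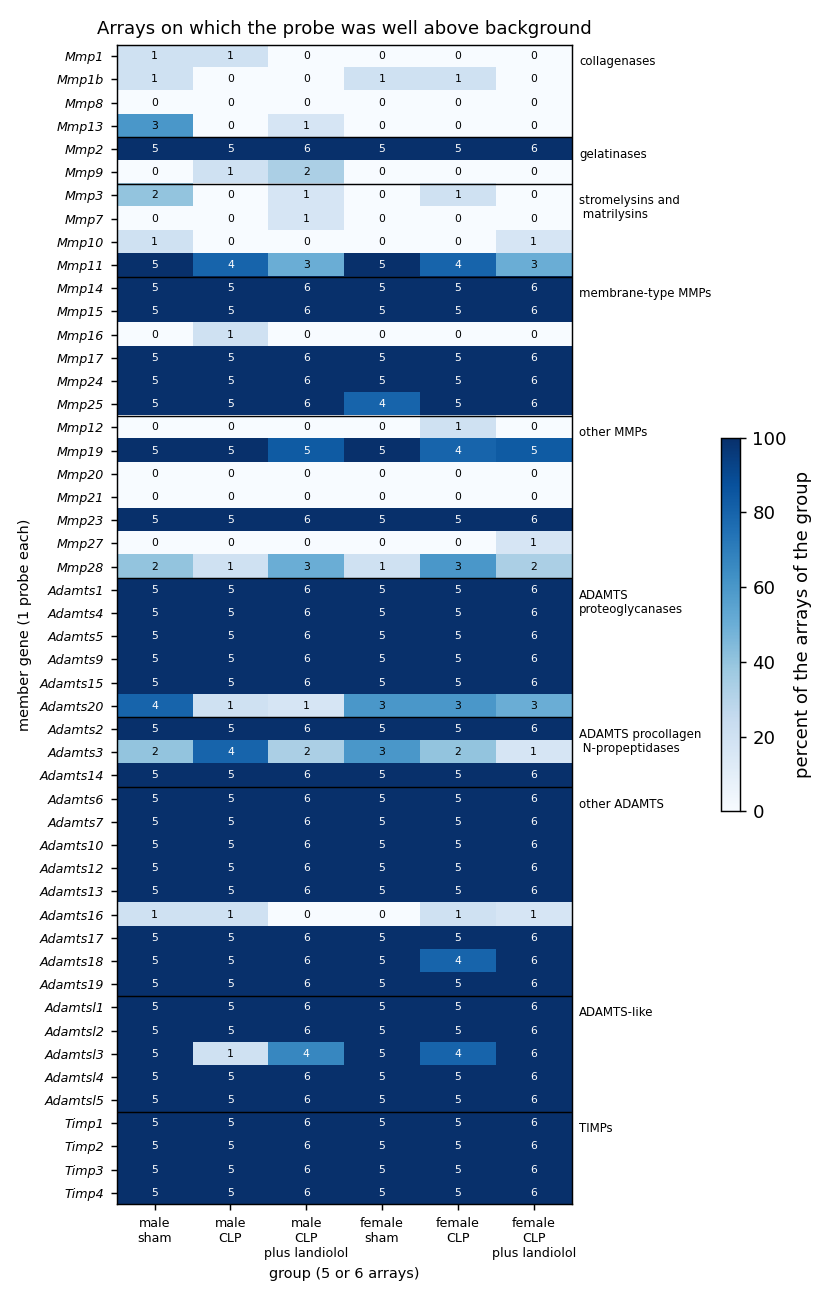
Number of arrays, out of 5 or 6 in a group, on which the representative probe of each of the 50 genes was well above background (numbers in the cells; the shade gives the percent of the arrays of the group), with genes grouped by role. The TIMPs were well above background on all arrays, whereas the collagenases were so on at most 3 arrays of a group.

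Among these dim genes, the neutrophil collagenase Mmp8 was well above background on 0 of 32 arrays. The probe of Mmp13, the main interstitial collagenase of rodents, was well above background on 3 of 5 male sham arrays, 0 of 5 male CLP arrays and 1 of 6 male CLP plus landiolol arrays, and on none of the female arrays. Mmp12 was well above background on 1 of 5 female CLP arrays and on no other array. That group had a mean of 4.79 ± 4.95 (SD, n = 5), a spread far wider than in any other group. No fold was computed for these probes, because most of their values were background. Adamts20, a proteoglycanase kept in males, was near the same limit, as its probe passed on 4 of 5 male sham arrays and on 1 array of each septic male group.

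In males, 7 of the 35 kept members (20%) were called between CLP and sham, where 9.35% of all 13354 genes tested were called. Of the 7, 4 were higher (4.28% of all genes were) and 3 were lower (5.07% of all genes were). The median log2 fold change of the kept members was -0.02, as was that of all genes. In females, 2 of 33 (6.06%) were called, 1 higher and 1 lower, against 4.3% of 13149 genes in all, of which 2.19% were higher and 2.11% lower. The share in females was thus near that of all genes. Because the members passed the filter partly through the group in which they were high, these shares describe the members and test nothing about them. In bulk tissue, fewer cells of a type and less RNA per cell cannot be told apart.

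**Figure D2:**
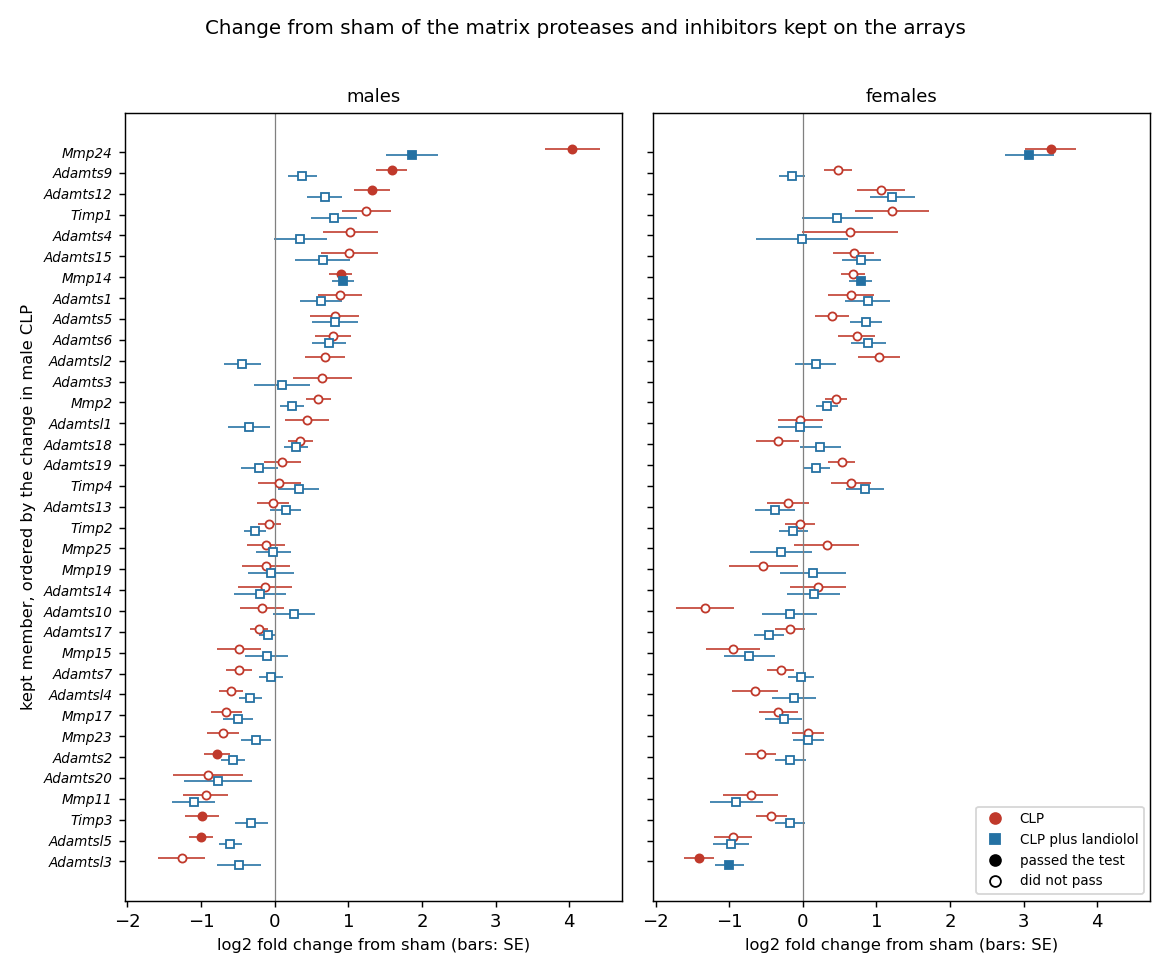
Log2 fold change from sham of each kept member, in CLP (red circles) and CLP plus landiolol (blue squares), in males (left) and females (right); bars are SE and filled symbols passed the test. Mmp24 lies furthest to the right in both sexes, and Adamts9 of males with CLP plus landiolol lies near 0 while that of males with CLP does not.

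Mmp24 encodes a membrane-type MMP best known from the nervous system, where it cleaves N-cadherin, a cell adhesion protein that cardiomyocytes also carry. Its log2 intensity was 5.09, 7.23, 6.63, 5.90 and 5.44 in male sham hearts and 9.57, 10.48, 9.86, 10.73 and 9.87 in male CLP hearts. The lowest CLP heart was 2.34 above the highest sham heart, and the groups did not overlap (log2 fold change 4.04 ± 0.37 (SE), adjusted p = 7.25e-06, limma). Female sham hearts had 6.56, 5.92, 6.61, 5.56 and 5.55, and female CLP hearts 8.97, 9.37, 9.02, 9.60 and 10.07. Here too the groups lay apart, by 2.36 (log2 fold change 3.37 ± 0.35 (SE), adjusted p = 4.33e-05, limma). All 5 arrays of each sham group were well above background for this probe, so that the lower end was a measured level. With the normexp background correction the call was kept in both sexes, and the log2 fold change was 3.03 in males and 2.43 in females.

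With landiolol, Mmp24 in males was 7.19 to 8.59 with a median of 7.94, between the other groups. Each of the 6 hearts was below each of the CLP hearts, with a gap of 0.99, and Mmp24 was 4.53-fold lower than in CLP (log2 fold change -2.18 ± 0.36 (SE), adjusted p = 0.00699, limma). It was still 3.64-fold above sham (log2 fold change 1.86 ± 0.36 (SE), adjusted p = 0.00372, limma), although the lowest landiolol heart was just below the highest sham heart; in a fit of the pair of groups alone the adjusted p was 0.011, and without any one of sham replicates 4 and 5 and landiolol replicates 1 and 2 it was at most 0.0126, past the 0.01 threshold. Female hearts with landiolol had 8.16 to 9.97 with a median of 9.14, and overlapped with female CLP hearts (log2 fold change -0.29 ± 0.33 (SE), adjusted p = 0.856, limma). The landiolol effect was therefore -2.18 in males and -0.29 in females on the log2 scale, and on all arrays normalised together the effect in females minus that in males was 1.87 ± 0.50 (SE; unadjusted p = 0.000899, adjusted p = 0.972, limma), which did not pass. In the current rat assembly (GRCr8) the end of Mmp24 at chr3:164739226-164783696 overlaps an antisense gene, Mmp24os, at chr3:164783060-164784573, and the probe was named only by the array annotation.

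Mmp14, the membrane-type MMP that activates the precursor of MMP2, was called higher than sham in both septic groups of males and in females with landiolol. In males, sham hearts had 12.21, 11.44, 11.44, 11.34 and 11.40, CLP hearts 12.70, 12.41, 12.50, 12.46 and 12.24, and CLP plus landiolol hearts 12.27 to 12.70 with a median of 12.47. The first sham heart stood above the other sham hearts, and even so no CLP or landiolol heart was below it. Mmp14 was 1.86-fold higher in CLP (log2 fold change 0.90 ± 0.16 (SE), adjusted p = 0.00127, limma) and 1.9-fold higher in CLP plus landiolol (log2 fold change 0.93 ± 0.15 (SE), adjusted p = 0.00116, limma). In females, sham hearts had 11.47, 11.33, 11.71, 11.73 and 11.74 and CLP hearts 12.45, 11.99, 12.07, 12.32 and 12.54. These groups did not overlap either, but the change was not called at 0.01 (log2 fold change 0.68 ± 0.16 (SE), adjusted p = 0.0148, limma). Female landiolol hearts had 12.07 to 12.71 with a median of 12.38, 1.73-fold above sham (log2 fold change 0.79 ± 0.15 (SE), adjusted p = 0.00344, limma), a call that was lost with the row on the slide as a term (0.53, adjusted p = 0.578) and without sham replicate 1 or 2 (at most 0.0112). Between landiolol and CLP, Mmp14 differed by 0.03 ± 0.15 (SE) in males and 0.11 ± 0.15 (SE) in females. The pair of Mmp14 probes start 10 bases apart (chr15:32503012-32503071 and chr15:32503002-32503061, rn4, plus strand) and share 50 of their 60 bases, so that the second is a near repeat of the first. Of the other membrane-type MMPs, Mmp15, Mmp17 and Mmp25 were kept and not called, with log2 fold changes in CLP from -0.66 to -0.12 in males and from -0.95 to 0.32 in females.

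**Figure D3:**
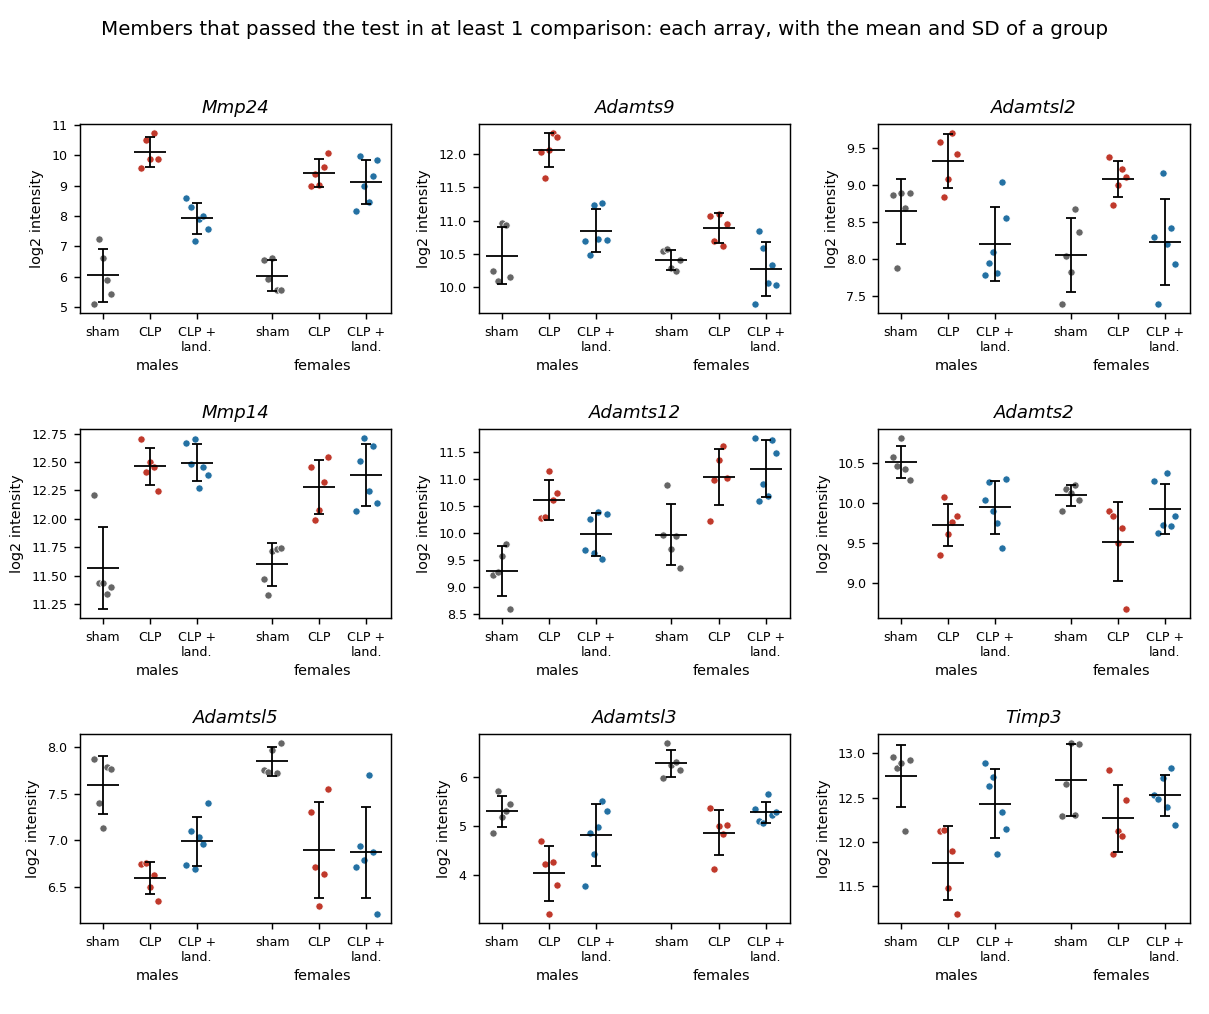
Log2 intensity of the 9 members called in at least 1 comparison, 1 point per array, with the mean (long bar) and SD (whiskers) of each group, in males (left of each panel) and females (right); the vertical axes start at different values. In both sexes Mmp24 and Mmp14 of CLP hearts lay above sham and Adamtsl3 and Adamtsl5 of CLP hearts below it, and Adamts9 of male CLP hearts lay above all other male hearts.

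The gelatinases cut denatured collagen and basement membrane. Mmp2 was bright on all arrays. Male sham hearts had 13.23, 13.21, 13.12, 12.91 and 12.80, CLP hearts 13.15, 13.45, 13.65, 14.0 and 13.99 and landiolol hearts 12.96 to 13.46 with a median of 13.43. The sham and CLP groups overlapped slightly, and the difference was not called (log2 fold change 0.59 ± 0.17 (SE), adjusted p = 0.0268, limma). In females the means were 12.88 ± 0.18 (SD, n = 5) in sham, 13.33 ± 0.31 (SD, n = 5) in CLP and 13.21 ± 0.16 (SD, n = 6) in CLP plus landiolol, and CLP differed from sham by 0.45 ± 0.15 (SE, adjusted p = 0.0813, limma). Mmp9, the gelatinase stored in neutrophil granules, was well above background on 0 of 5 sham, 1 of 5 CLP and 2 of 6 CLP plus landiolol arrays of males and on none of females, and was not tested. In the same hearts the neutrophil marker S100a8 was well above background on 5 of 5 CLP arrays of each sex. It was so on 0 of 5 male and 1 of 5 female sham arrays. Of the 3 kept neutrophil markers, 2 had a log2 fold change above 0 in CLP in each sex. S100a8 and S100a9 were called higher in male CLP, and S100a8 in female CLP. The granule genes Mpo, Elane and Ngp passed the background test on none of the septic arrays, and Mpo passed it on at least 1 male sham array. Outside the gelatinases, Mmp11, the only kept member of the stromelysins and matrilysins, differed from sham by -0.94 in male CLP and -0.71 in female CLP (adjusted p = 0.0497 and 0.282, limma).

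Adamts9 encodes a protease of versican and aggrecan. Its log2 intensity was 10.24, 10.09, 10.96, 10.93 and 10.16 in male sham hearts and 12.03, 11.65, 12.07, 12.31 and 12.25 in male CLP hearts. All CLP hearts were above all sham hearts, by at least 0.69, and Adamts9 was 3.01-fold higher (log2 fold change 1.59 ± 0.21 (SE), adjusted p = 0.000142, limma). Male landiolol hearts had 10.48 to 11.27 with a median of 10.72, all below the CLP hearts (2.31-fold lower, log2 fold change -1.21 ± 0.20 (SE), adjusted p = 0.00757, limma). They overlapped with sham, from which they differed by 0.38 ± 0.20 (SE, adjusted p = 0.272, limma). In females the values were 10.54, 10.58, 10.29, 10.24 and 10.41 in sham, 11.07, 10.69, 11.11, 10.62 and 10.96 in CLP and 9.74 to 10.85 with a median of 10.20 in CLP plus landiolol. The female CLP and sham groups were apart by only 0.04, and neither the change with CLP (0.48 ± 0.19 SE, adjusted p = 0.129, limma) nor that with landiolol (-0.62 ± 0.18 SE, adjusted p = 0.223, limma) was called. The change with CLP in females minus that in males was -1.08 ± 0.28 on the log2 scale (SE, unadjusted p = 0.00065, adjusted p = 1, limma), a difference that did not pass the test.

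The second Adamts9 probe was dimmer. It was well above background on 5 of 5 male CLP arrays (4.54, 4.40, 4.24, 4.84 and 4.77) and on none of the sham or landiolol arrays of males. With the main background subtraction and normalisation alone, it was at least 2.66-fold higher in CLP than in sham (adjusted p = 0.000265, limma). On the same values it was at least 1.72-fold higher in CLP than in CLP plus landiolol (adjusted p = 0.0207, limma). A bound sets the bright group against the lowest signal well above background on each array of the dim group. The probe passed the filter through the CLP group alone, so that it adds no support to the first probe, and its size depended on the background, as CLP differed from sham by 0.40 on the log2 scale with normexp (adjusted p = 0.00433, limma) and by -0.01 on the authors' own normalised table (adjusted p = 0.941). None of the other 5 proteoglycanases was called. Adamts1, Adamts4, Adamts5 and Adamts15, which also cut versican or aggrecan, differed from sham in male CLP hearts by 0.89, 1.03, 0.81 and 1.01 on the log2 scale (adjusted p between 0.0577 and 0.107, limma), and in female CLP hearts by 0.40 to 0.69. Adamts20 had the opposite sign in male CLP hearts (-0.90, adjusted p = 0.234, limma), with most CLP arrays at background.

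Adamts2, the main N-propeptidase of fibrillar procollagens, was lower in male CLP hearts. Sham hearts had 10.57, 10.45, 10.81, 10.41 and 10.28, CLP hearts 9.35, 10.07, 9.61, 9.76 and 9.83, with a gap of 0.21, and CLP plus landiolol hearts 9.44 to 10.30 with a median of 9.96. It was 1.72-fold lower in CLP (log2 fold change -0.78 ± 0.17 (SE), adjusted p = 0.00594, limma), a call that was lost without any one of sham replicates 1 to 4 or of CLP replicates 1, 3, 4 and 5 (highest adjusted p = 0.0187). A second probe was lower by more (log2 fold change -1.30 ± 0.22 (SE), adjusted p = 0.000834, limma) and was called under each of 27 other settings. In females the change was -0.57 ± 0.21 (SE, adjusted p = 0.111, limma), and the groups lay 0.01 apart. The second probe changed by -1.02 ± 0.27 in females (SE, adjusted p = 0.0253, limma), which was not called. Adamts14, a related propeptidase, differed by -0.14 in males and 0.21 in females. Adamts3, kept in males alone, was well above background on 2 of 5 sham and 4 of 5 CLP arrays and was not called.

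Adamts12, which like Adamts7 cuts cartilage oligomeric matrix protein, was higher in male CLP hearts. Its values were 9.23, 9.27, 9.57, 9.79 and 8.58 in sham, 10.27, 10.28, 11.14, 10.60 and 10.73 in CLP and 9.52 to 10.38 with a median of 9.97 in CLP plus landiolol. CLP and sham did not overlap (2.49-fold, log2 fold change 1.32 ± 0.25 (SE), adjusted p = 0.00186, limma), and the landiolol hearts lay between and overlapped with both. In females, CLP (11.03 ± 0.52 (SD, n = 5)) and sham (9.96 ± 0.57 (SD, n = 5)) overlapped (log2 fold change 1.06 ± 0.32 (SE), adjusted p = 0.0483, limma). Adamts7 itself differed by -0.48 in males and -0.30 in females and was not called. Among the 7 other kept genes of this group none was called by its representative probe, with changes in male CLP from -0.48 to 0.79 and in female CLP from -1.33 to 0.73.

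For Adamts17 the answer depended on the probe. The representative probe, which carries this name in 1 of the 2 annotation versions, had 9.80, 9.57, 9.61, 9.37 and 9.59 in male sham and 9.49, 9.49, 9.30, 9.48 and 9.12 in male CLP hearts, groups that overlapped (log2 fold change -0.21 ± 0.12 (SE), adjusted p = 0.28, limma). The probe 2800 bases downstream had 6.74, 6.95, 8.54, 6.87 and 6.38 in sham, 4.39, 5.21, 4.89, 5.17 and 5.51 in CLP and 4.98 to 6.15 with a median of 5.61 in CLP plus landiolol. There the CLP hearts were all below the sham hearts (log2 fold change -2.06 ± 0.34 (SE), adjusted p = 0.000839, limma), and so were the landiolol hearts (log2 fold change -1.58 ± 0.33 (SE), adjusted p = 0.00615, limma). The CLP call of this probe was kept under each of 27 other settings and the landiolol call under 17. With normexp the changes were smaller, -1.05 in CLP and -0.88 in CLP plus landiolol, the latter not called (adjusted p = 0.0102, limma). In females it was well above background on 3 of 5 sham, 1 of 5 CLP and 2 of 6 landiolol arrays, and was not tested. Which transcripts each probe reads was not tested.

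Of the 13 members with more than 1 kept probe, Adamts17 was thus the one in which another probe was called with CLP in males and the representative probe was not. Adamts10 also had probes that differed in size (-0.18 against -0.64 in males, -1.33 against -0.46 in females), none of them called.

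**Figure D4:**
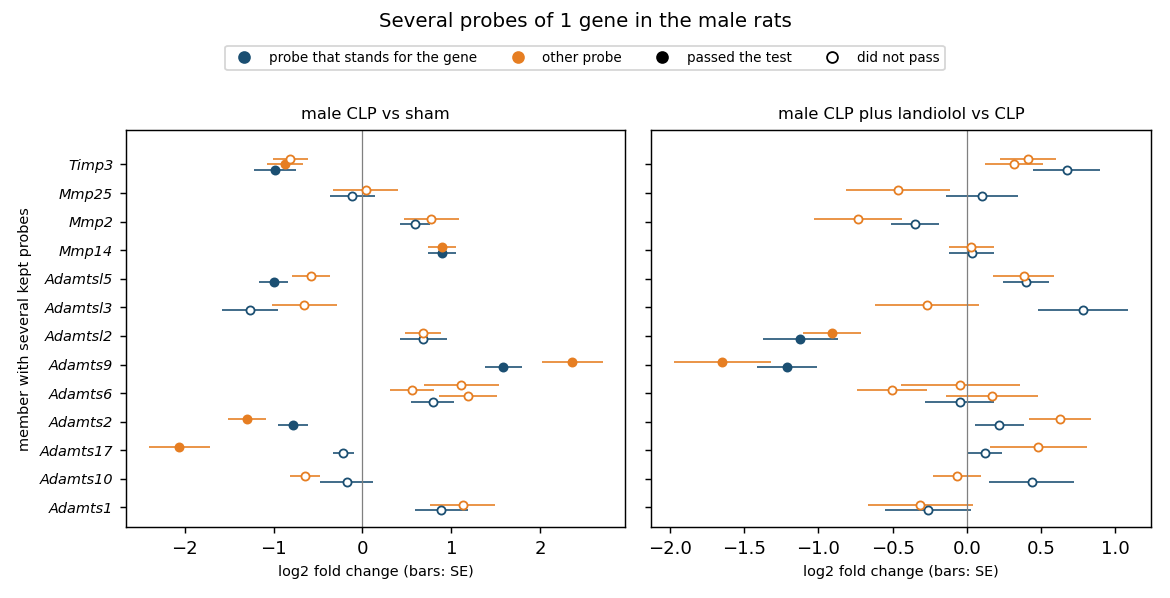
Log2 fold change (bars are SE) of each kept probe of the 13 members with more than 1 kept probe, in males, for CLP vs sham (left) and CLP plus landiolol vs CLP (right); blue is the probe that represents the gene, orange is another probe, and filled symbols passed the test. The probes of Adamts17 lie at -0.21 and -2.06 on the left, while those of Mmp14 coincide.

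The ADAMTS-like proteins bind fibrillin and other matrix proteins without cutting them. Adamtsl2, the gene mutated in geleophysic dysplasia, was the member whose call appeared between landiolol and CLP and not between CLP and sham. In males it was 8.87, 7.87, 8.89, 8.70 and 8.89 in sham, 9.58, 8.84, 9.08, 9.71 and 9.43 in CLP and 7.78 to 9.04 with a median of 8.02 in CLP plus landiolol. The CLP and sham hearts overlapped by 0.06 (log2 fold change 0.68 ± 0.27 (SE), adjusted p = 0.0948, limma), and 1 of the 6 landiolol hearts lay above the lowest CLP heart. Adamtsl2 was 2.18-fold lower with landiolol than with CLP alone (log2 fold change -1.12 ± 0.25 (SE), adjusted p = 0.0378, limma), and its second probe was -0.91 ± 0.19 (SE, adjusted p = 0.0296, limma), called under 19 of 27 other settings (highest adjusted p = 0.102). The call of the first probe was lost at an FDR of 1%, in a fit of the pair of groups alone, and without any one of sham replicates 3 and 4, CLP replicates 3 to 5, and landiolol replicates 1 to 4 and 6 (highest adjusted p = 0.126). Females had 7.38, 8.04, 7.82, 8.68 and 8.37 in sham, 9.38, 8.73, 9.0, 9.22 and 9.11 in CLP and 7.38 to 9.16 with a median of 8.25 in CLP plus landiolol. Here the CLP hearts were all above the sham hearts, though not called (log2 fold change 1.03 ± 0.29 (SE), adjusted p = 0.0325, limma), and the change with landiolol was -0.86 ± 0.27 (SE, adjusted p = 0.284, limma).

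Adamtsl5 was lower in male CLP hearts. Sham hearts had 7.87, 7.41, 7.13, 7.79 and 7.77, CLP hearts 6.75, 6.75, 6.49, 6.62 and 6.35 and landiolol hearts 6.69 to 7.41 with a median of 7.0. CLP and sham lay 0.38 apart (2-fold lower, log2 fold change -1.0 ± 0.16 (SE), adjusted p = 0.000768, limma), and a dimmer second probe was not called (-0.58 ± 0.21 SE, adjusted p = 0.0776, limma). In females the changes were of similar size, -0.95 with CLP and -0.98 with CLP plus landiolol, and missed the threshold (adjusted p = 0.0293 and 0.0165, limma). Adamtsl3 was called in females. Female sham hearts had 5.98, 6.71, 6.26, 6.31 and 6.16, CLP hearts 5.37, 4.13, 5.0, 4.84 and 5.03 and landiolol hearts 5.08 to 5.66 with a median of 5.27. Each septic female heart was below each sham heart, both in CLP (2.66-fold, log2 fold change -1.41 ± 0.20 (SE), adjusted p = 0.000543, limma) and in CLP plus landiolol (2-fold, log2 fold change -1.0 ± 0.19 (SE), adjusted p = 0.00338, limma). A second kept probe had the same direction and was not called in CLP (-1.13 ± 0.35 SE, adjusted p = 0.0561, limma). Nor was it called in CLP plus landiolol (-1.13 ± 0.34 SE, adjusted p = 0.0383, limma). The first probe was dim, and with normexp its CLP change was -0.60 and its landiolol change -0.44, both still called. With the row on the slide as a term the landiolol call was lost (adjusted p = 0.286), and so it was without sham replicate 2 (adjusted p = 0.0106, limma). In males the change of the first probe with CLP was -1.26 ± 0.32 (SE, adjusted p = 0.0124, limma). It was well above background on 5 of 5 male sham and 1 of 5 male CLP arrays, so that the CLP level there was mostly background. The second probe differed by -0.66 in male CLP (adjusted p = 0.264, limma). Adamtsl1 and Adamtsl4 were not called.

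The TIMPs bind the active site of MMPs, and they did not move together. Timp3, the matrix-bound inhibitor that also blocks ADAMTS proteases and the sheddase ADAM17, was 12.95, 12.84, 12.89, 12.12 and 12.93 in male sham hearts, 12.12, 12.13, 11.47, 11.89 and 11.18 in CLP and 11.86 to 12.89 with a median of 12.49 in CLP plus landiolol. The sham heart at 12.12 overlapped with the CLP hearts, and the others were above them. Timp3 was 1.98-fold lower in CLP (log2 fold change -0.99 ± 0.24 (SE), adjusted p = 0.00944, limma), close to the threshold, and the call was lost in a fit of the pair of groups alone (adjusted p = 0.0175) and without any one of sham replicates 1, 2, 3 and 5, CLP replicates 3 to 5, and landiolol replicates 2, 3, 5 and 6 (highest adjusted p = 0.0276). Of its other probes, 1 was called (-0.87, adjusted p = 0.00855) and 1 just missed (-0.81, adjusted p = 0.0106, limma). In females the change was -0.43 ± 0.21 (SE, adjusted p = 0.241, limma).

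Timp1, a secreted inhibitor that is induced by cytokines in many tissues, was 13.34, 13.99, 13.45, 12.96 and 13.58 in male sham, 14.05, 14.36, 14.71, 15.08 and 15.35 in CLP and 13.38 to 15.25 with a median of 14.33 in CLP plus landiolol hearts. The male CLP hearts were all above the sham hearts, by at least 0.06, yet the change missed the 0.01 threshold (log2 fold change 1.25 ± 0.33 (SE), adjusted p = 0.0167, limma). Female sham hearts had 10.94, 13.74, 13.62, 13.36 and 14.07, of which the first stood far below the others, CLP hearts 15.16, 13.38, 14.36, 14.64 and 14.25 and landiolol hearts 12.61 to 14.15 with a median of 13.87. In females the groups overlapped (log2 fold change 1.21 ± 0.50 (SE), adjusted p = 0.153, limma), and without the low sham heart the change was 0.66 (adjusted p = 0.307). Timp2, which also takes part in the activation of MMP2 by MMP14, differed from sham by -0.07 ± 0.16 (SE) in male and -0.04 ± 0.21 (SE) in female CLP hearts. Timp4, the TIMP known for its expression in heart, differed by 0.06 ± 0.29 (SE) and 0.66 ± 0.27 (SE). Neither was called in any comparison.

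**Figure D5:**
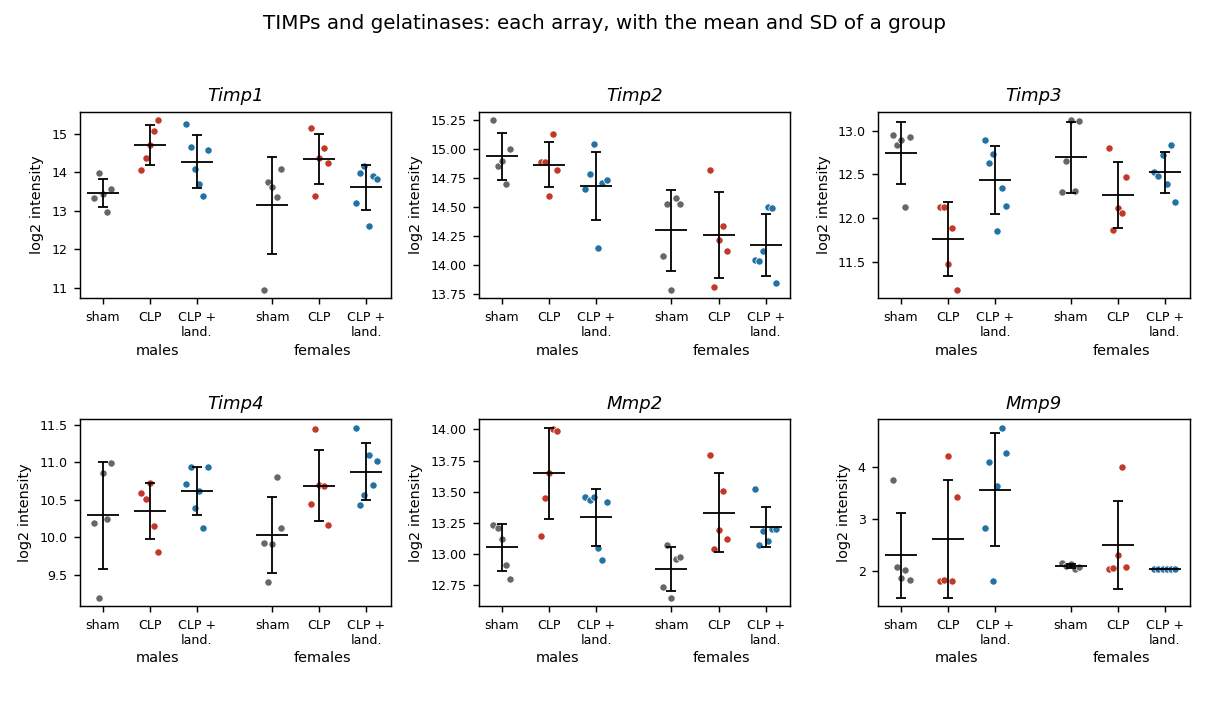
Log2 intensity of the 4 TIMPs and the gelatinases Mmp2 and Mmp9, 1 point per array, with the mean (long bar) and SD (whiskers) of each group, in males and females; the vertical axes start at different values. The Timp1 values of male CLP hearts all lay above those of sham, those of Timp3 met sham at 12.12, and Mmp9 lay near the background on most arrays.

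For the effect of landiolol, 3 of 35 kept members (8.57%) were called between CLP plus landiolol and CLP in males, all lower, against 1.81% of all genes (0.786% lower and 1.03% higher). These were Mmp24, Adamts9 and Adamtsl2. The median of the kept members was 0.01, as was that of all genes. Members called lower with CLP did not reach the threshold in the other direction, with log2 fold changes against CLP of 0.67 for Timp3, 0.40 for Adamtsl5 and 0.22 for Adamts2 (adjusted p = 0.167, 0.246 and 0.556, limma). In females, 0 of 33 kept members were called by limma, against 0.114% of all genes, with a lowest adjusted p of 0.223, and 0 called by SAM. At an unadjusted p under 0.05 (limma) there were 4 of these members, beside 2372 of all 25394 kept probes.

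Against sham, CLP plus landiolol hearts had 2 called members of 35 in males (5.71%, against 5.02% of all genes, with 2.72% higher and 2.3% lower), namely Mmp24 and Mmp14, both higher. In females there were 3 of 33 (9.09%, against 6.13% of all genes, with 3.49% higher and 2.64% lower), namely Mmp24 and Mmp14, higher, and Adamtsl3, lower. This comparison shares its sham arrays with that of CLP and sham. In females it was also tied to position on the slide, since all 5 sham arrays lay in row 1 and all 6 landiolol arrays in row 2, with CLP arrays in both. With row as a term, 0 members (20 probes in all) were called in this comparison, and the log2 fold change was 2.36 for Mmp24 (adjusted p = 0.121), 0.53 for Mmp14 (adjusted p = 0.578) and -1.10 for Adamtsl3 (adjusted p = 0.286, limma). Female CLP against sham kept its 2 calls with row as a term.

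For the sexes, the change with CLP and the change with landiolol were compared on all 32 arrays normalised together. By limma, 0 of 33 members differed in either, as did 0% of all 12977 genes tested. At an unadjusted p under 0.05 (limma) there were 3 and 2 members, beside 867 and 1217 of all 24768 probes kept in both sexes. Sex and slide cannot be told apart for levels, as each slide held 1 sex, but each slide held all 3 groups. Within slides, the 17 calls of members gave 34 differences, and all 34 had the direction of the call, which is fixed where the groups do not overlap. The calls were made on these same arrays, so this adds no support to them, also where the groups overlapped. Of the calls with overlap, Timp3 in male CLP differed by -0.99 and -1.11 and Adamtsl2 between male landiolol and CLP by -1.23 and -1.10 on the male slides. The remaining call with overlap, Mmp24 between male landiolol and sham, differed by 1.86 and 1.83. For Mmp24 in CLP they were 3.81 and 4.31 on the male slides and 3.25 and 3.61 on the female slides.

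Since Mmp24, Adamts9 and Adamtsl2 shared the lower level with landiolol in males, the 250 bases before their RefSeq start sites (GRCr8) are shown, with matches to a searched motif in capitals. They lie at chr3:164738976-164739225 (plus strand), chr4:127019877-127020126 (minus strand) and chr3:30802450-30802699 (plus strand).
Mmp24: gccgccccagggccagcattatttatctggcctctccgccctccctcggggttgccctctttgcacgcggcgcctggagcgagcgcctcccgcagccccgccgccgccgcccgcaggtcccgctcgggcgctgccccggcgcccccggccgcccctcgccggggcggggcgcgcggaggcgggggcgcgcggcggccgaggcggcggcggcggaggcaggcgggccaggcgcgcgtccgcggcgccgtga
Adamts9: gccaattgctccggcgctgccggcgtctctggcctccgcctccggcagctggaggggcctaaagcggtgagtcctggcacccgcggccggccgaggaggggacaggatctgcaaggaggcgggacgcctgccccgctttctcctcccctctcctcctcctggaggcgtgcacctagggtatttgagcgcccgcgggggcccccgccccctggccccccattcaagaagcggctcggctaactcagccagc
Adamtsl2: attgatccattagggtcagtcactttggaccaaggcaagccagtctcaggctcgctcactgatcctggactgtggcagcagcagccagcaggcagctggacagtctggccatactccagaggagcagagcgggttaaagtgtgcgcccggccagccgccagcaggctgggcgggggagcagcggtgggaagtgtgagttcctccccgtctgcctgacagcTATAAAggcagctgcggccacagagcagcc

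The Mmp24 sequence was 83.6% G and C with 45 CG pairs, that of Adamts9 71.6% with 21, and that of Adamtsl2 62.4% with 9. Motifs were searched on both strands and compared with 33469 such windows. The TATA motif TATAAA was found in Adamtsl2, starting 30 bases before the start site, and in 12.9% of all windows. No match was found in these 3 windows for the AP-1 motif TGANTCA (6.34% of windows), the cAMP response element TGACGTCA (1.59%), its shorter form TGACG, which the full element contains (18.2%), the STAT motif TTCNNNGAA (7.67%) or the E-box CACGTG (5.59%).

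Other genes of matrix proteolysis were given by lists. In male CLP hearts, where 4.28% of all genes were called higher and 5.07% lower, 2 of 6 kept protease inhibitors outside the TIMPs were higher, A2m and Slpi, as were 3 of 7 activators and partners of MMPs, Pcsk5, Lcn2 and Lrp1, 1 of 8 ADAM sheddases, Adam9, and 1 of 5 cathepsins, Ctsl. None of 6 genes of plasminogen activation was called. Lcn2, whose protein binds and stabilises MMP9, had the largest of these changes (log2 fold change 5.10 ± 0.35 SE in males, adjusted p = 6.72e-07, and 3.82 ± 0.41 SE in females, adjusted p = 5.97e-05, limma), and with landiolol it was lower than with CLP in males (-1.53 ± 0.33 SE, adjusted p = 0.0314, limma). Slpi, an inhibitor of neutrophil elastase, rose by 2.82 in males and 2.96 in females, Lrp1, an endocytic receptor that clears MMPs and TIMPs, by 1.09 and 1.15, and the lysosomal protease Ctsl by 1.30 and 0.94, all called in both sexes, and no other kept gene of these lists was called in female CLP hearts. Cst3, an inhibitor of cathepsins, was higher than sham in CLP plus landiolol and not called in CLP, by 0.59 in males and 0.70 in females (adjusted p = 0.00541 and 0.00159, limma). The sheddase Adam12 differed from sham by -1.15 in male CLP plus landiolol hearts (adjusted p = 0.00644, limma). It was well above background on 5 of 5 sham and 1 of 6 landiolol arrays, so that the landiolol level was mostly background. Of the 12 kept proteoglycans and glycoproteins that these enzymes cut, 0 were higher and 3 were lower in male CLP hearts, Lum (-1.89), Eln (-1.26) and Sparc (-0.70), and 0 were called in female CLP hearts.

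Of 6 fibroblast markers, Col1a1 (-2.11), Col1a2 (-1.34) and Col3a1 (-2.05) were lower and Tcf21 (1.25) was higher in male CLP hearts, and 0 were called in female CLP hearts. Their summed intensity was 75800 to 115000 in male sham, 24200 to 47100 in male CLP and 37100 to 63500 in male CLP plus landiolol hearts. In females it was 44700 to 53100 in sham, 23300 to 44200 in CLP and 27200 to 47400 in CLP plus landiolol, so that female CLP also lay below sham. Of 7 kept macrophage and monocyte markers, Cd68, Adgre1 and Lyz2 were higher in CLP in both sexes, and the summed intensity was 11800 to 16400 in male sham and 31400 to 46300 in male CLP hearts, and 15500 to 22800 and 32300 to 51100 in the females. With landiolol it was 23500 to 45500 in males, where 0 of 7 were called against CLP, and 30800 to 51500 in females. The 3 kept neutrophil markers summed to 48.1 to 100 in male sham, 127 to 798 in male CLP and 272 to 877 in male landiolol hearts. In females they summed to 66.1 to 175 in sham, 152 to 419 in CLP and 176 to 1080 with landiolol. No endothelial, smooth muscle or lymphocyte marker was called in male CLP hearts, the pericyte marker Rgs5 was lower in female CLP hearts (-0.91), and Kcnj8, another marker of mural cells, was higher with landiolol than with CLP in males (0.78). The part of these cell types in the members' changes was not tested.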

How the data were processed

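Left ventricle RNA of 32 rats was hybridised to 1-colour Agilent arrays, 16 per sex, and scanned by the authors with Feature Extraction 10.5 (from the submitters' processing notes); RNA integrity numbers were above 8 per the labels. The deposited scanner files hold a processed intensity for each of 62976 spots, background-subtracted by the authors' scanner software. The scanner software's protocol was GE1_107_Sep09 for all arrays of slide 3, a female slide, and GE1_105_Dec08 for all other arrays. Among females, protocol and slide therefore cannot be told apart. Control spots and flagged outlier spots were left out and replicate spots were averaged to 45598 probes. The study's methods name a log2 conversion and quantile normalisation; here the log2 of the processed intensities was quantile-normalised over the 16 arrays of a sex, which fixes the distribution of each array, so that a change shared by most genes would not be seen. The authors' deposited series table of log2 quantile-normalised values served as an alternative (lowest Spearman correlation of a column with its own array 0.995).

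Probes well above background on 80% of the arrays of at least 1 group were kept (25864 in males, 25394 in females), and the 3 groups of a sex were fitted with limma 3.58.1 in R 4.3.3, with Benjamini-Hochberg adjustment at 1% against sham and 5% between CLP plus landiolol and CLP. The sex difference was an interaction over 32 arrays at 5%. Replicates are the samples of a group, and their p-values measure the spread between these arrays. Of the member probes, 17 carry different names in the 2 annotation versions of the files, and either name counted. Genes were named when called in a comparison, when a TIMP or gelatinase, or as examples of a role group, and genes of the other lists when called in both sexes or with landiolol; further names are given for counts of 5 or fewer. The members and lists were chosen with earlier results of these data known. Alternatives were the 75th percentile, normexp (offset 50), other filters, probes, fits and thresholds, slide and row terms, SAM (100 permutations), the authors' table and leaving out each array. The scripts were tested on simulated data. Probe positions (rn4) come from the array files, and start sites and promoter sequences from RefSeq (GRCr8).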

Additional observations from a re-analysis of the deposited data

Results flagged for a closer look

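Of 84 pairs of a gene and a group checked for a single array far from the others, 7 stood out, where chance flags about 1 in 20 groups. The check covered 14 genes, and Mmp12 was not among them. Low arrays were those of Adamtsl2 in male sham replicate 2 (log2 intensity 7.87, others 8.70 to 8.89), Timp1 in female sham replicate 1 (10.94, others 13.36 to 14.07) and Timp3 in male sham replicate 4 (12.12, others 12.84 to 12.95). High arrays were those of Mmp14 in male sham replicate 1 (12.21, others 11.34 to 11.44), Mmp2 in female CLP plus landiolol replicate 1 (13.52, others 13.07 to 13.20) and Mmp9 in male sham replicate 1 (3.75, others 1.82 to 2.07) and female CLP replicate 4 (3.99, others 2.05 to 2.31), the last pair below the scanner's background limit.

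For the ADAMTS protease gene Adamts18 the mean log2 difference between CLP and sham was 0.35 in males and -0.34 in females, and each CLP array lay on that side of its own sham mean. Neither difference passed its test (adjusted p = 0.194 and 0.54, limma), nor did the difference between the sexes (adjusted p = 1, limma), and a second, dimmer probe that was not kept had a higher mean in CLP than in sham in both sexes (4.27 against 2.63 in males and 4.14 against 3.44 in females).

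Mmp9, which was dim on most arrays and was not tested, was well above background on 3 arrays of septic males and on 0 sham arrays.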

How the results depend on the processing

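Of the 17 calls of members none reversed under the alternatives tried, and Mmp24, Adamts9, Adamts12, Mmp14 and Adamtsl5 in male CLP, Mmp24 and Adamtsl3 in female CLP, Mmp24 and Adamts9 between landiolol and CLP, and Mmp14 between male landiolol and sham kept theirs in all of them. Male CLP against sham had 11 called members by SAM and 15 at an FDR of 5%. Male CLP plus landiolol against sham had 1 in a fit of these groups alone, 4 with the mean of kept probes and 5 at 5%. Female CLP against sham had 4 by SAM and 7 at 5%. Female CLP plus landiolol against sham had 0 with row as a term, 7 by SAM and 8 at 5%. The shares of all genes under these settings are not given here, so these counts show nothing particular to the members. Leaving out 1 array gave 5 to 10 members in male CLP against sham, 2 to 4 in male CLP plus landiolol against CLP, 1 to 3 in male CLP plus landiolol against sham, 2 to 3 in female CLP against sham, 0 in female CLP plus landiolol against CLP, 2 to 5 in female CLP plus landiolol against sham, and 0 for both sex differences. Without a filter, and with row as a term, Adamts2, Timp3 (male CLP) and Adamtsl2 (male landiolol) were lost. The causes were not tested. With normexp, Mmp24, the dim Adamtsl3 and the second probes of Adamts9 and Adamts17 had smaller changes, so that their size rests on the treatment of background. No paired analysis was made, because each array was of a different rat and the labels link no rats between groups.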
